A study of Mus musculus with 3 samples.

Results

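Neutrophils were followed in the livers of control mice, mice fed a high-fat diet (HFD) and mice given carbon tetrachloride (CCl4), with 1 single-cell RNA-seq library per group. The cells were selected on their measured values. A barcode was taken as a neutrophil when at most 30% of its unique molecular identifiers (UMIs, each standing for 1 captured transcript) were mitochondrial, when Csf3r, Retnlg, Cxcr2, Il1r2, Mmp9 and Mmp8 together had at least 3 UMIs, when S100a8 and S100a9 together had at least 10, and when Cd3e, Cd79a and Clec4f had none. This rule took 898 of 36990 barcodes. Cells with at least 5 UMIs in Ngp, Camp and Ltf together were read as immature (140 cells) and the others as mature (758 cells). The genes of both rules are given as a description only.

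The mice were wild-type C57BL/6 males, 8 weeks old at the start, and 2 of them were pooled for each library. Control mice were untreated, and the age at which they were killed was not given. The HFD group was kept for 4 months on a diet in which fat supplied 60% of the calories. The CCl4 group ate chow for 3 months and then received 0.1 mL of a 10% CCl4 solution by intraperitoneal injection 2 times a week for 4 weeks. Hepatocytes and non-parenchymal cells were isolated separately and mixed 1:1 before capture, so a share of barcodes is a share of this mixture and not of the liver. With 1 library of pooled mice per group, a group could not be told apart from its library, its preparation or the time on study. No test between groups was possible, and each interval below is a 95% interval that covers counting error only.

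Neutrophils are short-lived granulocytes made in the bone marrow and among the first cells to reach injured tissue. Their granules are filled in sequence during maturation. Azurophil granules (Mpo, Elane) come first, specific granules (Ltf, Camp, Ngp) follow, and gelatinase granules (Mmp9) come last, after which the cells leave the marrow and become able to make cytokines such as interleukin 1 beta (Il1b).

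Neutrophils made up 539 of 11245 control barcodes (4.79%, 4.41 to 5.20, exact Clopper-Pearson), 306 of 12984 HFD barcodes (2.36%, 2.10 to 2.63) and 53 of 12761 CCl4 barcodes (0.415%, 0.311 to 0.543). The HFD share was 0.492 times the control share (0.428 to 0.564), and the CCl4 share was 0.0866 times it (0.0654 to 0.115). Per 100 barcodes of T cells, taken as at least 2 UMIs in Cd3d, Cd3e and Cd3g together and none of Cd79a or Clec4f, the neutrophils numbered 32.6, 24.1 and 5.46. The order of the 3 libraries was thus the same with a denominator that leaves out hepatocytes. The neutrophils held 2137640, 767188 and 115522 UMIs in the control, HFD and CCl4 libraries, of 49613255, 34985786 and 34061186 in all. Their median depth was 2587, 2212 and 1961 UMIs per cell. No neutrophil barcode was shared between libraries.

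**Figure D1:**
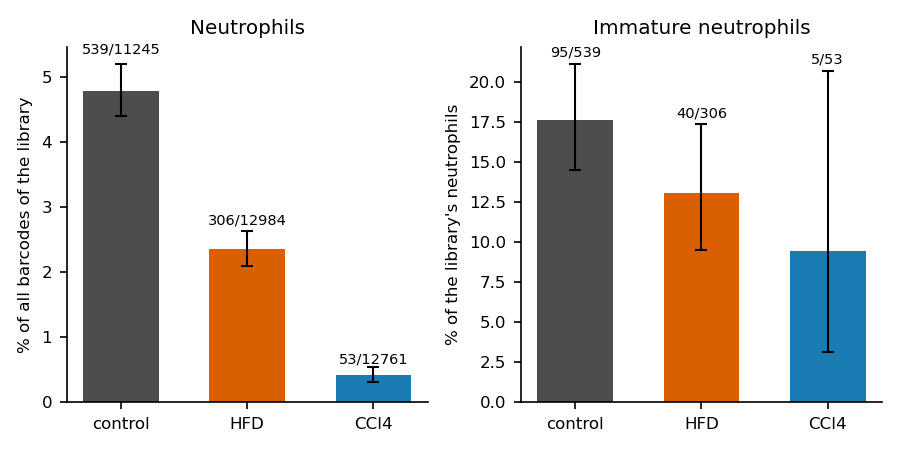
Neutrophils as a percent of all barcodes and immature cells as a percent of neutrophils in the control, HFD and CCl4 libraries (1 library of 2 pooled mice each). Bars start at 0, error bars are exact 95% binomial intervals and the labels give the counts. The neutrophil share was 4.79%, 2.36% and 0.415%, and the intervals of the immature share overlapped.

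The CCl4 cells lay close to the limits of the rule. S100a8 and S100a9 together, the subunits of calprotectin, had 10 UMIs in the lowest, 120 in the median and 2584 in the highest control cell. The corresponding values were 19, 164 and 1909 in HFD cells and 11, 33 and 288 in CCl4 cells. At least 50 such UMIs were held by 442, 298 and 19 cells, so most CCl4 neutrophils were below the control median. Just inside the limit on the other 6 genes, with 3 or 4 UMIs, were 51 control, 19 HFD and 24 CCl4 cells, and just outside it, with 1 or 2 UMIs, were 59, 30 and 22 barcodes. For S100a8 and S100a9, 22, 1 and 14 cells had 10 to 19 UMIs, while 12, 1 and 0 barcodes were left out at 5 to 9.

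Genes that the rule did not use also set the cells apart from T cells. Hdc, which makes histamine, was measured at 834 UMIs per 1000000 UMIs of the cell class (CPM) in control, 421 in HFD and 580 CPM in CCl4 neutrophils, against 35.2, 8.61 and 3.98 CPM in T cells of the same libraries. C5ar1, the receptor for complement C5a, stood at 244, 194 and 190 CPM, against 9.05, 3.69 and 0.884 CPM in T cells. Clec4d, a C-type lectin receptor, stood at 225, 167 and 113 CPM, against 9.84, 3.38 and 1.33 CPM in T cells. All 3 genes were thus far above their level in T cells, in each library. Their levels in monocytes are not given here, so the 3 genes are not shown to be particular to neutrophils.

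Markers of other cells were summed over lists to show what else the barcodes held. The 10 hepatocyte genes, all detected and led by Apoa2 or Alb, summed to 53697, 75014 and 133100 CPM in control, HFD and CCl4 neutrophils and to 32032, 71174 and 123290 CPM in T cells, so this RNA was present in both cell types and was highest in the CCl4 library. Erythroid genes, led by Hbb-bs, summed to 8031, 2106 and 1991 CPM, with 3692, 2220 and 1797 CPM in T cells. Monocyte genes, led by Ly6c2 or, in CCl4, Ccr2, summed to 475, 275 and 147 CPM, with 341, 322 and 214 CPM in T cells and with Cx3cr1 at 0 in CCl4. Eosinophil genes reached at most 8.66 CPM, with Epx, Prg2 and Prg3 at 0 in all 3 libraries. Basophil genes, led by Gata2, reached 22.5 CPM in control and none had a UMI in the other libraries.

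The remaining lists summed to at most 199 CPM. T cell genes summed to 74.4, 37.8 and 199 CPM, with the leading gene Trbc2 in control and Cd3g in the others, against 2969, 2139 and 2095 CPM in T cells themselves and 59 CPM in B cells of the CCl4 library. B cell genes summed to 92.2, 49.5 and 17.3 CPM, led by Ighm or, in CCl4, Ms4a1. Kupffer cell genes summed to 37.0, 19.6 and 8.66 CPM, led by C1qa, C1qc and Vsig4, with Timd4 at 0 in each library. NK cell genes, led by Gzma, summed to 192, 9.12 and 17.3 CPM. Dendritic cell genes, led by Ccr9, summed to 46.3, 13 and 0 CPM, endothelial genes, led by Pecam1 and Kdr, to 42.6, 43.0 and 0 CPM, and platelet genes, led by Ppbp or Pf4, to 3.74, 13 and 26.0 CPM, the last from 3 UMIs and above the 3.98 CPM of T cells.

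Deep and azurophil-rich neutrophil barcodes were seen in the control library alone. Among control neutrophils, 49 had over 8000 UMIs, 17 had at least 5 UMIs in the azurophil genes Mpo, Elane, Prtn3 and Ctsg together, and 22 also met the conditions of a classical monocyte. HFD had 0, 0 and 7 such cells, and CCl4 had none. The 44 deep cells among the mature control neutrophils held 33.7% of that group's UMIs and 52.9% of its Alb UMIs. Leaving out these 3 kinds of barcode gave 472, 299 and 53 cells, called the restricted set, and values from it stand beside many of the comparisons below. Whether these barcodes were doublets was not tested.

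Immature cells were a minority in each library. They numbered 95 of 539 control neutrophils (17.6%, 14.5 to 21.1), 40 of 306 HFD neutrophils (13.1%, 9.51 to 17.4) and 5 of 53 CCl4 neutrophils (9.43%, 3.13 to 20.7). The HFD share was 0.742 times the control share (0.527 to 1.04) and the CCl4 share 0.535 times it (0.228 to 1.26), so no difference was detectable at this number of cells. With each cell thinned to 1000 UMIs the shares were 16.2%, 10.8% and 7.51%, and in the restricted set they were 18.4%, 12% and 9.43%. Among cells with at least 50 UMIs of S100a8 and S100a9 the order turned, with 26.3% in CCl4 (5 of 19 cells) and 21.5% in control. In T cells, 3 of 1652, 1 of 1270 and 0 of 971 barcodes reached 5 UMIs of these genes, the last allowing up to 0.379% by the exact interval. Among progenitor barcodes, taken as at least 5 UMIs in Mpo, Elane, Prtn3 and Ctsg together and outside the neutrophil rule, 20 of 217 (9.22%), 9 of 37 (24.3%) and 1 of 6 (16.7%) reached it. In HFD these barcodes held more Camp than the neutrophils (5543 against 2224 CPM), so the 3 genes of the split are not confined to cells of the neutrophil rule. Few cells lay at the limit, with 6, 4 and 1 cells at 5 to 9 UMIs and 7, 7 and 1 cells at 2 to 4.

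The genes that set the immature cells apart stand close together in part. Ngp, Camp and Ltf, the 3 genes of the split, all lie on chromosome 9, and Lcn2, which encodes an iron-siderophore binding protein of the same granules, lies on chromosome 2. The 250 bases before their annotated starts (RefSeq, build GRCm38.p6) are shown because these are the genes of the split and a further gene of their granule class, and because the factor C/EBP epsilon (Cebpe), which drives granule genes, binds sequences of the type TTGCNNAA. Capitals mark matches to TTGCNNAA or its other strand TTNNGCAA. The windows lie at chr9:110419558-110419807 on the plus strand for Ngp, chr9:111019042-111019291 on the plus strand for Ltf, chr2:32387740-32387989 on the minus strand for Lcn2 and chr9:109849457-109849706 on the minus strand for Camp.
Ngp: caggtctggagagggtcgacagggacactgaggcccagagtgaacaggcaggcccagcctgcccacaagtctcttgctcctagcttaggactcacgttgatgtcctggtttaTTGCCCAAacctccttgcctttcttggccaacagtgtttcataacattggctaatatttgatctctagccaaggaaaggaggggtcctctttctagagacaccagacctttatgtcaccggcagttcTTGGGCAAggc
Ltf: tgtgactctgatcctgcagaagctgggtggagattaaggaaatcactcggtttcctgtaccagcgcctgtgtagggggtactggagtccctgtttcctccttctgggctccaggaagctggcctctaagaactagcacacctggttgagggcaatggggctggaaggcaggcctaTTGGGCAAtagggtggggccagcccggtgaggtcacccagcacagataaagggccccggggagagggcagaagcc
Lcn2: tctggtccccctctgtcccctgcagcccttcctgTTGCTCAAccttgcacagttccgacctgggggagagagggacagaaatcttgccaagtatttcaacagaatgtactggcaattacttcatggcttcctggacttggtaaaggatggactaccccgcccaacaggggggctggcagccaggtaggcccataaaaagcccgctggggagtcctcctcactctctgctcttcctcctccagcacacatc
Camp: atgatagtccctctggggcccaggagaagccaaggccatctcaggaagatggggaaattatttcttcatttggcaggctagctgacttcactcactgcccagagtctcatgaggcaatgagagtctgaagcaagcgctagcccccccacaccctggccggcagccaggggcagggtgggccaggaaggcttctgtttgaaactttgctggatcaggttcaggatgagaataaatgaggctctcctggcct
Ngp held 2 matches, 138 and 11 bases before the start, Ltf held 1 at 75 bases and Lcn2 held 1 at 216 bases. Camp held none in this window. Of 32851 promoter windows of this length, 9.56% held a match. Of the 16 genes of the specific granule list 15 were matched to a window, and 5 of them held a match (Ltf, Ngp, Lcn2, Mmp8 and Anxa1). A gene was counted when any of its windows held a match. The count of genes and the share of windows are therefore on different bases. A match is a run of letters, and binding was not measured here.

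Most genes of the specific granule list were higher in immature cells of each library, and a part of the cytokine and NF-kB list was lower. A gene was called when the ratio of its level plus 5 CPM was at least 2-fold, among genes with at least 50 CPM in either group, leaving out mitochondrial and ribosomal protein genes. In all 3 libraries the same way, 78 of 2168 genes were higher in immature cells (3.6%) and 47 were lower (2.17%). Within single libraries 10.1% of 3163 genes were higher and 21.5% lower in control, 9.68% of 2956 higher and 8.42% lower in HFD, and 39.3% of 3866 higher and 26.9% lower in CCl4, where 5 immature cells with 11128 UMIs stood behind the comparison. In those cells 1 UMI equals 89.9 CPM, past the 50 CPM limit, so 1 UMI or none could decide a call. The control and HFD libraries alone had 144 higher and 88 lower of 2533 genes. The median log2 ratio over all genes was -0.30, and it was -0.19 when the most abundant genes were left out of the scaling, which gave 89 higher and 33 lower genes. Since the split was made on the same cells, these contrasts are descriptions without a test.

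Of the specific granule genes, 12 of 13 measured were higher in immature cells of all 3 libraries (median log2 ratio 3.99 against -0.30 for all genes), counting Ltf, Camp and Ngp themselves, whose excess the split fixed. Without these 3 genes it was 9 of 10, with a median of 3.67. Cd177, a surface protein stored in these granules, stood at 865 CPM in immature and 24.1 in mature control cells. It stood at 740 and 62.9 CPM in HFD and at 539 and 28.7 CPM in CCl4. Olfm4, a granule protein made by only some neutrophils, stood at 378 against 3.44 CPM in control and at 321 against 1.57 CPM in HFD. In CCl4 Olfm4 rested on 1 UMI. Cybb, the membrane subunit of the NADPH oxidase, stood at 1705 against 122 CPM, 1290 against 101 CPM and 719 against 38.3 CPM, and of the 6 oxidase genes 3 were higher in all libraries (Cybb, Ncf1 and Ncf4). Serpinb1a, an inhibitor of neutrophil serine proteases, stood at 317 against 17.2 CPM in control and at 397 against 15.7 CPM in HFD, and like Olfm4 it rested on 1 UMI in CCl4.

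Other lists had fewer members past 2-fold. Cebpe stood at 157 against 5.16 CPM in control and at 114 against 7.86 CPM in HFD, and it was the only factor of 12 measured that was higher in all libraries, with none lower. In CCl4 Cebpe had only 4 UMIs in all neutrophils, 2 of them in mature cells. Of the gelatinase granule and surface genes 3 of 9 were higher (Mmp25, Itgam and Fpr2), and of the chemotaxis and adhesion genes 3 of 13 were higher and 1 lower. Of the S100 genes 1 of 6 was higher (S100a8, a gene of the rule). Of the cell cycle genes 2 of 4 were higher in all libraries (Stmn1 and Hmgb2), with 8 of 11 higher in control alone and 4 of 6 in HFD alone. The count in all libraries was 2 of 4 in the restricted set, 0 of 3 with each cell weighted equally and 0 of 4 with 20 CPM added. Itgb2l, an integrin gene (1 UMI in CCl4), Ly6a2, of the Ly6 family, and the keratin gene Krt83 (2 UMIs in CCl4) completed the 10 genes with the largest shared excess.

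Of the cytokine and NF-kB genes 7 of 16 were lower in immature cells of all libraries and none higher (Il1b, Ccl6, Ptgs2, Tnfaip2, Clec4d, Acod1 and Nlrp3, with a median of -1.86). In single libraries 14 of 20 were lower and 1 higher in control (Osm), 8 of 18 lower and none higher in HFD, and 12 of 18 lower and 3 higher in CCl4. Il1b stood at 239 CPM in immature against 2368 in mature control cells and at 504 against 2337 CPM in HFD. In CCl4 it stood at 89.9 against 1485 CPM, the former from 1 UMI. Acod1, which makes itaconate, stood at 91.3 against 574 CPM in control and at 99.2 against 413 CPM in HFD. Ifitm1, an interferon-induced membrane protein, stood at 73.6 against 855 CPM and at 137 against 3376 CPM, and Wfdc17, a small secreted protein of the WAP domain family, at 81.2 against 723 CPM and at 603 against 5742 CPM. Clec7a, Ccrl2, Ptgs2, Cd300ld, Ccl6 and Stfa2l1 were the others among the 10 genes with the largest shared deficit. In immature CCl4 cells Acod1, Ptgs2, Ifitm1, Wfdc17, Clec7a, Ccrl2, Cd300ld and Stfa2l1 had 0 UMIs, and Ccl6 had 2. A lower level in CCl4 was thus not established for the genes without a UMI there.

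The remaining lists had few members past 2-fold in all libraries. Interferon-stimulated genes had 1 higher (Ifitm6) and 1 lower (Ifitm1) of 5, protease inhibitors 1 higher and 2 lower of 6, and azurophil genes 1 higher (Serpinb1a) and 1 lower (Srgn) of 3. Growth factor receptors had 1 lower of 8 and survival genes 1 lower of 6. None of the measured stress, glycolysis and Toll-like receptor genes passed 2-fold in all libraries.

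**Figure D2:**
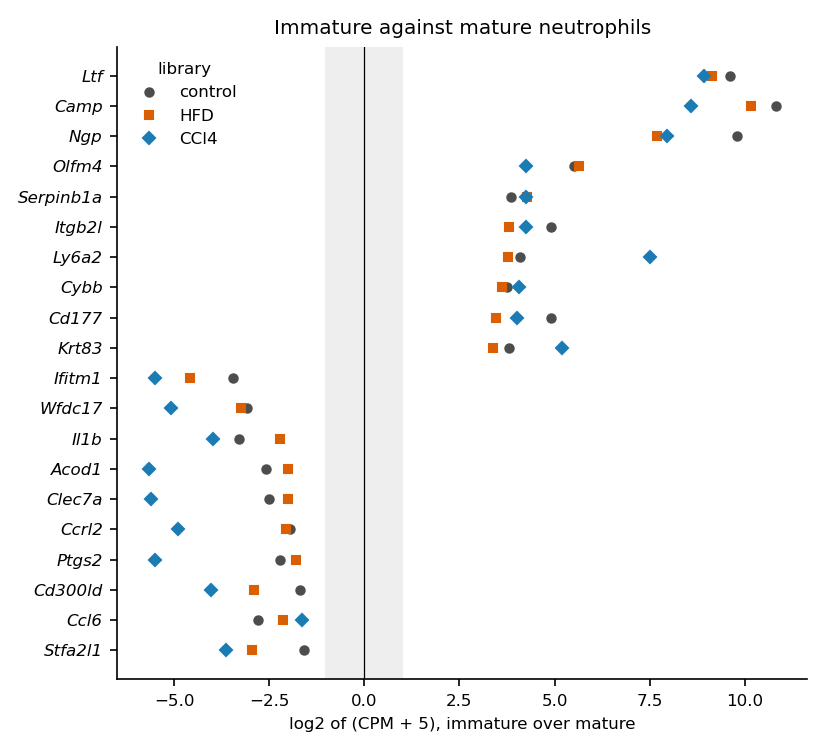
Log2 ratio of (CPM + 5) in immature over mature neutrophils for the 20 named genes, with 1 point per library. The grey band marks ratios under 2-fold. All points lie outside it, which follows from choosing the genes by their smallest change the same way in the 3 libraries. Ltf, Camp and Ngp defined the split. CCl4 points rest on 5 immature cells, several of them on 0 or 1 UMI.

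Across 4 steps of the Ngp, Camp and Ltf sum (0, 1 to 4, 5 to 49, and 50 or more UMIs) the genes followed different courses. The steps held 415, 29, 22 and 73 control cells and 245, 21, 15 and 25 HFD cells, the HFD step of 15 cells being thin. The CCl4 steps of 46, 2, 4 and 1 cells were too thin to read. Lcn2 was higher at the later steps, with 2149, 2178, 5550 and 9177 CPM in control and 1031, 1691, 3898 and 8126 CPM in HFD. All barcodes outside the neutrophil rule held 2115 CPM of Lcn2 in control and 52.3 CPM in HFD. The control levels at 0 and at 1 to 4 UMIs thus lay near that of the rest of the library. Il1b was lower at each step, with 2448, 1356, 597 and 151 CPM in control and 2379, 1866, 896 and 323 CPM in HFD. Chil3, which encodes a chitinase-like lectin, was high only at the last step, with 126, 108, 64.8 and 2530 CPM in control and 47.9, 136, 72.6 and 847 CPM in HFD. Cd177, by contrast, was already near its last level at 5 to 49 UMIs, with 726 and then 899 CPM in control and 533 and then 836 CPM in HFD.

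The proliferation gene Top2a stood at 177 CPM in control and 78.0 CPM in HFD at the last step and had no UMI at 5 to 49 in either library. That step held few cells and was thin in HFD, so the missing UMIs do not show that Top2a was absent. Ly6g, the surface antigen by which mouse neutrophils are sorted, stood at 37.2, 77.5, 467 and 543 CPM in control and at 197, 272, 702 and 401 CPM in HFD. The intervals of Ly6g in the libraries lay apart at 0 UMIs (28.4 to 47.8 in control, 162 to 236 in HFD) and at 1 to 4 UMIs (37.2 to 143 and 149 to 457), and overlapped at both later steps.

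**Figure D3:**
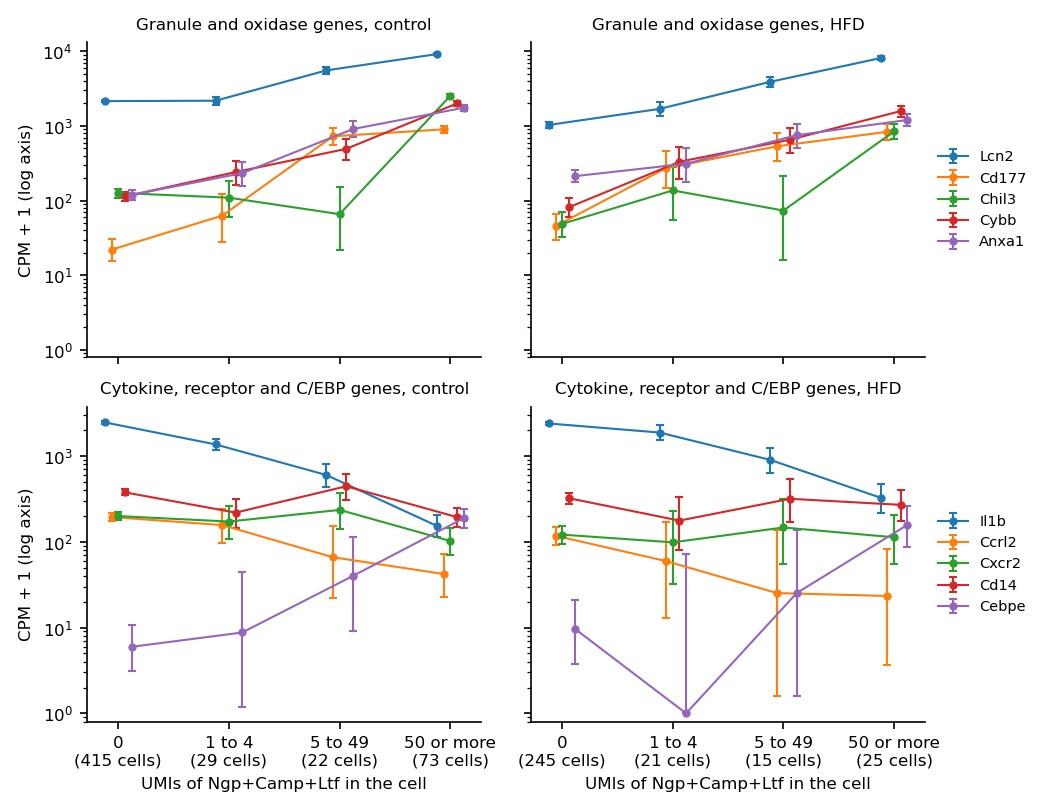
Level (CPM + 1, log axis) of 5 granule and oxidase genes (top) and 5 cytokine, receptor and C/EBP genes (bottom) in control (left) and HFD (right) neutrophils, by the UMIs of Ngp, Camp and Ltf in the cell. Bars are exact 95% Poisson intervals. Lcn2 went from 2149 to 9177 CPM and Il1b from 2448 to 151 CPM in control, with the same order in HFD. The other control barcodes held 2115 CPM of Lcn2.

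The comparison of HFD with control asks how the diet relates to neutrophil expression, and it was made in mature cells (266 against 444) because the immature shares could differ. Mature HFD neutrophils had more Wfdc17, Ifitm1, Ifitm6, Ly6g and cystatin A family transcripts and far less Thbs1 and Csf1. Of 3071 genes tested, 193 were at least 2-fold higher (6.28%) and 341 lower (11.1%), with a median log2 ratio of -0.17. In the restricted set 266 were higher and 513 lower. Only 190 of the 3071 genes were at least 3 times the level in T cells and in B cells of the same library, of which 17 were higher and 23 lower. The 10 highest and 10 lowest genes come from these 190, and the genes of the lists are named whatever their level in T cells.

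Wfdc17 stood at 5742 CPM (5557 to 5931) in HFD and 723 CPM (683 to 764) in control, 7.95-fold (7.45 to 8.48). Single HFD cells had 0 UMIs in the lowest, 12 in the median and 47 in the highest cell, with a UMI in 260 of 266, against 0, 1 and 29 in control with a UMI in 264 of 444. CCl4 cells had 0, 0 and 6, with a UMI in 8 of 48. In all neutrophils thinned to 1000 UMIs, 84.2% of HFD, 34.3% of control and 8.94% of CCl4 cells had a Wfdc17 UMI, against 2.84%, 1.42% and 0.679% of T cells. The log2 ratio of 2.98 between HFD and control became 2.58 in the restricted set.

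Ifitm1 stood at 3376 CPM in HFD against 855 CPM in control, 3.95-fold (3.69 to 4.22), with a log2 ratio of 1.97 that became 1.51 in the restricted set. Single cells had 0, 7 and 30 UMIs in HFD, 0, 2 and 26 in control and 0, 0 and 6 in CCl4. Its relative Ifitm6 stood at 454 against 84.3 CPM, 5.39-fold (4.40 to 6.62). Of 9 interferon-stimulated genes measured 2 were higher (these) and 3 lower (Isg15, Rsad2 and Cxcl10), beside 6.28% higher and 11.1% lower over all genes. In the restricted set 2 were higher and 4 lower of 9. At 3 times the T and B cell level 2 were higher and 1 lower of 5, and from 200 CPM 2 were higher and 0 lower of 5. Isg15, a ubiquitin-like modifier, stood at 40.9 against 112 CPM, and Rsad2, an antiviral enzyme, at 17.3 against 76.9 CPM.

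Ly6g stood at 203 against 40.1 CPM, 5.05-fold (3.75 to 6.86), and with each cell weighted equally its log2 ratio of 2.20 became 1.48. Prok2, a secreted chemoattractant, had 39 UMIs in HFD and 7 in control. Of the cysteine and serine protease inhibitors 3 of 6 were higher (Stfa1, Stfa2l1 and Wfdc17), 2 of 5 without Stfa1 in the restricted set and 1 of 6 with each cell weighted equally, beside 6.28% higher over all genes. Stfa2l1, of the cystatin A family, stood at 443 against 146 CPM. The log2 ratio of Stfa2l1, 1.57, became 1.03 in the restricted set and 0.86 with each cell weighted equally, under 2-fold. Cstdc4, a cystatin family gene, stood at 454 against 136 CPM, 3.34-fold (2.80 to 3.99). Stfa1, Stfa2l1 and Cstdc4 belong to a family of near-identical copies, so the split of reads among them is uncertain. Upp1 (61.3 against 12.6 CPM), Mov10 (62.9 against 21.2 CPM) and Igfbp6 (70.7 against 23.5 CPM) completed the 10, and 19 of the 41 control Igfbp6 UMIs came from 1 cell. The log2 ratio of Igfbp6, 1.41, became 0.95 in the restricted set, under 2-fold, and 1.35 with each cell weighted equally.

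On the lower side, Thbs1, which encodes the matrix glycoprotein thrombospondin 1, stood at 104 CPM in HFD and 1119 CPM in control, a ratio of 0.0927 (0.0714 to 0.118). HFD cells had 0, 0 and 5 UMIs with a UMI in 38 of 266, control cells 0, 2 and 45 with a UMI in 314 of 444, and CCl4 cells 0, 0 and 3 with a UMI in 15 of 48. The log2 ratio was -3.37 and, in the restricted set, -3.82. The CCl4 level of Thbs1 was 249 CPM, so both treated libraries lay below control. Csf1, the macrophage growth factor, had 1 UMI in HFD and 193 UMIs in 108 control cells, a ratio of 0.0142 (0.000358 to 0.0801). In CCl4, Csf1 was seen in 6 of 48 mature cells.

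The other 8 lowest genes included receptors and response genes. Il1rn, the interleukin 1 receptor antagonist, stood at 36.2 against 163 CPM, although control T cells also had 53.1 CPM. Nlrp3, the inflammasome sensor, stood at 56.6 against 180 CPM. Tgm2 (66.0 against 248 CPM) and Mpeg1 (47.2 against 177 CPM) followed, with Cd300c2, Rab44 and Rsad2. F13a1, a monocyte marker, stood at 11 against 66.5 CPM, but at 6.40 against 12.0 CPM in the restricted set, under 2-fold. The monocyte conditions by which barcodes were left out count F13a1, so this change was partly built in.

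**Figure D4:**
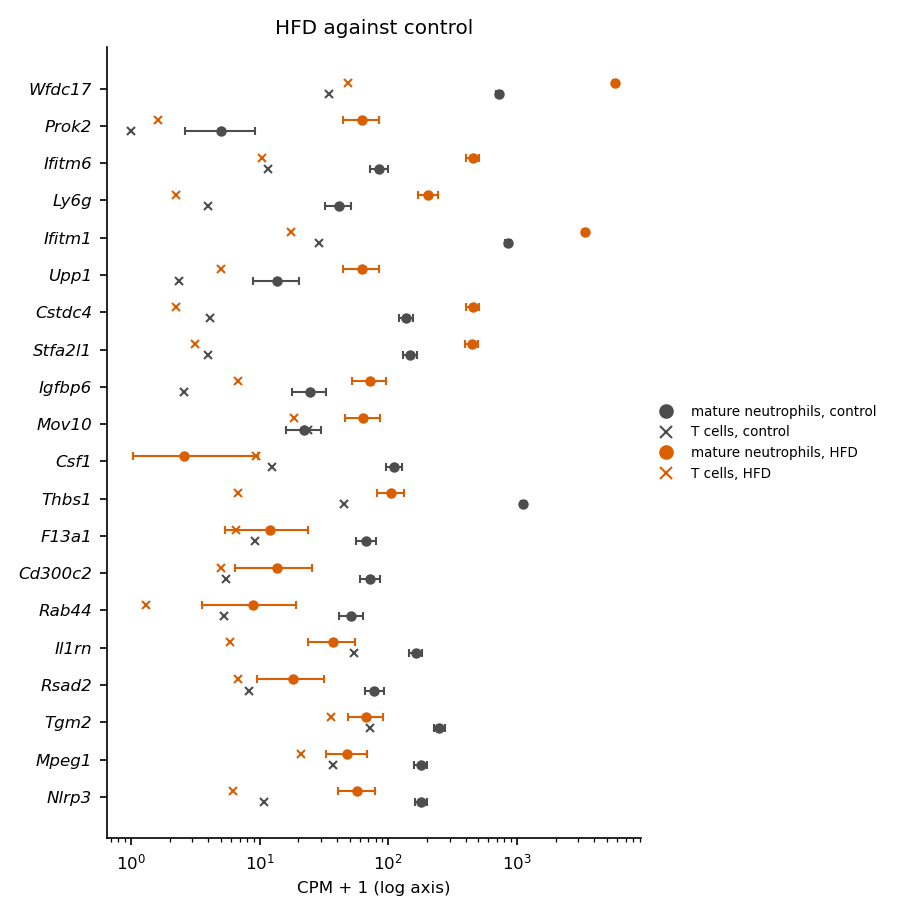
Level (CPM + 1, log axis) of the 20 named genes in mature neutrophils of the HFD and control libraries, with exact 95% Poisson intervals, and in T cells of the same libraries (crosses). Wfdc17 (5742 against 723 CPM) leads the genes higher in HFD, and Thbs1 (104 against 1119 CPM) has the highest control level among the genes lower in HFD.

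By group, the cytokine and NF-kB genes were lower in HFD or within 2-fold. Of 20 measured, 7 were lower and 0 higher (median -0.56 against -0.17 for all genes), and of 21 in the restricted set 11 were lower and 0 higher (median -1.08). Of the 14 at 3 times the T and B cell level 4 were lower (median -0.37). The 7 were Ccl3, Ccl4, Il1rn, Ptgs2, Tnfaip3, Nlrp3 and Csf1. Ptgs2, the inducible prostaglandin synthase, stood at 145 against 381 CPM and the chemokine Ccl3 at 45.6 against 243 CPM. The chemokine Ccl4, not to be read as the solvent, stood at 256 against 806 CPM, below the 1072 and 1644 CPM of T cells. Il1b did not follow them, at 2337 against 2368 CPM (0.987, 0.930 to 1.05), although the restricted set had 2320 against 3357 CPM. Cxcl2, a neutrophil chemoattractant, stood at 5219 against 4120 CPM, but at 5237 against 5764 CPM in the restricted set, the opposite order.

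Chemotaxis and adhesion genes had 1 of 17 higher (Ly6g) and 5 lower (Cxcr4, Itgal, Itga4, Cd44 and Icam1), and 1 higher and 10 lower in the restricted set. Of the 10 at 3 times the T and B cell level 1 was higher and 1 lower (Cd44), beside 17 higher and 23 lower of all 190 such genes. Cxcr4, which holds neutrophils in the marrow, stood at 72.3 against 290 CPM, with 53.5 and 180 CPM in T cells. Cxcr2, the receptor that draws them out and a gene of the rule, stood at 118 against 196 CPM. These counts stand beside 6.28% higher and 11.1% lower over all genes, and 266 higher and 513 lower of 3102 genes in the restricted set. Of the transcription factors 4 of 13 were lower (Runx1, Klf6, Irf8 and Xbp1) and none higher, with Irf8 at 14.1 against 144 CPM and Xbp1 at 101 against 388 CPM. The factors again had 4 of 13 lower in the restricted set, but none of the 4 factors at 3 times the T and B cell level was lower, and T cells held 38.7 and 104 CPM of Irf8 and 110 and 247 CPM of Xbp1. Stress genes had 5 of 9 lower, and 6 of 9 in the restricted set, but T cells of the same libraries held Dnajb1 at 117 and 226 CPM and Jun at 424 and 576 CPM, above the neutrophils' 28.3 and 66.5 CPM and 163 and 381 CPM.

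S100 genes had 3 of 6 higher in HFD, S100a6 at 7424 against 3458 CPM besides S100a8 and S100a9 of the rule, but none of 5 passed 2-fold in the restricted set. Azurophil genes had 4 of 5 lower (Mpo, Elane, Prtn3 and Ctsc) and, in the restricted set, 1 of 3. Mpo had no UMI in mature HFD cells and 84.3 CPM in control, at least 17.9-fold lower against 3 counts in the HFD group. Control mature cells of the restricted set had only 0.920 CPM, so the difference lay in the barcodes left out. Mpo, Elane, Prtn3 and Ctsg are the genes by which azurophil-rich barcodes were left out, so their fall in that set was built in. Cell cycle genes had 4 of 6 lower and, in the restricted set, 0 of 3. Specific granule genes had 1 higher (Cd177) and 1 lower (Chil3) of 8, and none of 7 in the restricted set. Cd177 stood at 62.9 against 24.1 CPM and, in the restricted set, at 64 against 36.8 CPM, under 2-fold. Chil3 stood at 55 against 124 CPM, but at 30.4 against 14.7 CPM in the restricted set, where the order was the opposite. The remaining lists had few members past 2-fold, with the oxidase at 1 lower of 6 (Ncf1), growth factor receptors 1 lower of 9 (Il6ra) and glycolysis 1 lower of 10 (Ldha). These counts were 1 of 6, 3 of 10 and 0 of 10 in the restricted set. None of the 8 gelatinase granule, 7 survival and 2 Toll-like receptor genes measured passed 2-fold, against 1 of 8, 2 of 8 and 0 of 2 lower in the restricted set.

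The comparison of CCl4 with control rested on 48 mature cells. Of 3252 genes tested 389 were higher in CCl4 (12%) and 566 lower (17.4%), with a median log2 ratio of -0.09. In the restricted set 510 were higher and 705 lower. Of the 194 genes at least 3 times the level in T and B cells, 16 were higher and 79 lower. The genes with the highest ratios were thin. Spp1, which encodes osteopontin, stood at 1226 CPM against 359 CPM, but 97 of its 128 UMIs in CCl4 came from 1 cell and only 6 cells had any. The other 9 (1810024B03Rik, Tent4a, Ttc23, Inhbe, Acy3, Rmc1, Cdhr5, Nudcd1 and Hgsnat) rested on 6 to 10 UMIs each.

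Lower genes included surface receptors and granule proteins. Ccr1, a chemokine receptor, stood at 47.9 against 273 CPM (5 and 476 UMIs), a ratio of 0.175 (0.0567 to 0.412), and Tlr2, the receptor for bacterial lipoproteins, at 9.58 against 110 CPM, a ratio of 0.0874 (0.00220 to 0.493) from 1 UMI. Cxcr2, a gene of the rule, had 3 UMIs and a ratio of 0.147 (0.0302 to 0.433). Anxa1, a mediator that limits neutrophil recruitment, had 1 UMI and a ratio of 0.0756 (0.00190 to 0.425), and Ier3, an early response gene, had 2 UMIs and a ratio of 0.112 (0.0135 to 0.408). In the restricted set the log2 ratios of these 5 genes, Cxcr2 being tied to the selection, ran from -2.91 (Ccr1) to -3.45 (Anxa1).

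Several genes had no UMI in CCl4. Against 3 counts in the group (28.7 CPM) Chil3 was at least 4.33-fold lower, but its 217 control UMIs came from 18 cells and the control level was 14.7 CPM in the restricted set, under that floor. Sirpb1b was at least 2.26-fold lower, Gpr141 at least 2.22-fold and Cxcl3, a chemokine, at least 1.92-fold. Igfbp5 was at least 1.98-fold lower, with 95 of its 99 control UMIs in 1 cell.

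**Figure D5:**
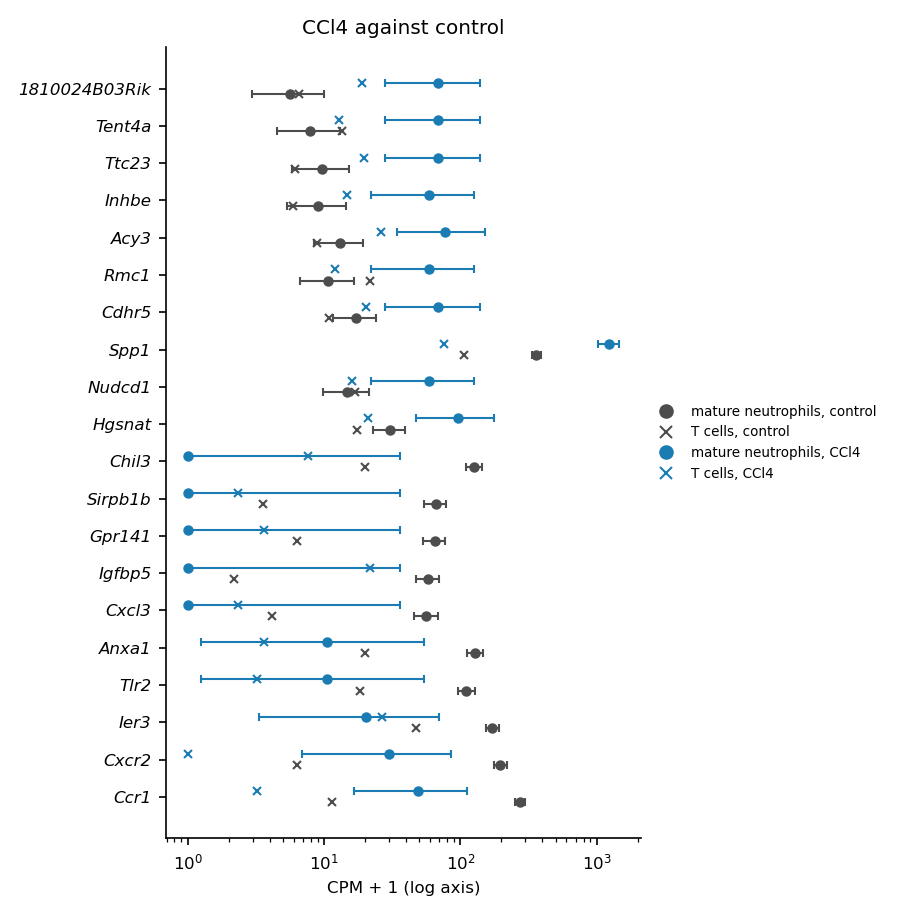
Level (CPM + 1, log axis) of the 20 named genes in mature neutrophils of the CCl4 and control libraries, with exact 95% Poisson intervals, and in T cells of the same libraries (crosses). The CCl4 intervals are wide because 48 cells stand behind them. Ccr1 (47.9 against 273 CPM) and Tlr2 (9.58 against 110 CPM) lie apart from control. Cxcr2 is a gene of the rule.

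The lists are read against 12% of all genes higher and 17.4% lower in CCl4, and against 510 higher and 705 lower of 3282 genes in the restricted set. A further base is the 194 genes at 3 times the T and B cell level, with 16 higher and 79 lower (median -0.77). Of 20 cytokine and NF-kB genes 13 were lower and 0 higher (median -1.13, or -1.11 with genes at 0 placed at their bound), and of 21 in the restricted set 18 were lower. Il1b itself stood at 1485 against 2368 CPM, within 2-fold, but at 1485 against 3357 CPM in the restricted set, past it. Cxcl2 stood at 1887 against 4120 CPM, Slpi, a protease inhibitor, at 441 against 970 CPM and Nfkbia, which holds NF-kB in the cytoplasm, at 517 against 1228 CPM. Specific granule genes had 5 of 7 lower (Lcn2, Chil3, Anxa1, Cybb and Lyz2, median -1.55), with Lcn2 at 287 against 2151 CPM although control T cells held 876 CPM of it. In the restricted set 3 of 6 were lower (median -1.06), with Cybb at 38.3 against 80 CPM and Lyz2 at 374 against 730 CPM, both under 2-fold. Interferon-stimulated genes had 5 of 9 lower (median -1.76, or -1.63 with bounds), the oxidase 3 of 6, gelatinase granule genes 4 of 8 with 1 higher and chemotaxis genes 6 of 15. These 4 lists in the restricted set had 5 of 9, 2 of 6, 7 of 9 with none higher, and 9 of 17. At 3 times the T and B cell level 9 of 15 cytokine and NF-kB, 4 of 8 gelatinase granule and 4 of 8 chemotaxis genes were lower. Specific granule, interferon-stimulated and transcription factor genes each had 3 of 4 lower on that base, and protease inhibitors 3 of 3. Growth factor receptor and S100 genes each had 0 of 4.

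Transcription factors had 6 of 13 lower in CCl4, among them Spi1, which encodes the myeloid factor PU.1, at 76.6 against 268 CPM. Protease inhibitors had 3 of 5 lower, with and without the barcodes left out of the restricted set. Azurophil genes had 3 of 6 lower with 1 higher (median -2.46, or -1.16 with bounds), and in the restricted set, whose filter uses azurophil genes, 2 of 4 lower with 1 higher (median -0.54). Cell cycle genes had 4 of 6 lower, and 1 of 3 in the restricted set. Stress genes had 4 of 10 lower, and 3 of 10 in the restricted set. Glycolysis genes (2 of 9) and survival and growth factor receptor genes (1 each of 7 and 9) had few members lower. These counts were 2 of 9, 1 of 8 and 2 of 10 in the restricted set. In the main setting the shares of the survival and growth factor receptor lists were below that of all genes. Of the Toll-like receptor genes 1 of 3 was lower, against 2 of 3 in the restricted set and 6 of 9 with genes from 20 CPM. None of the 6 S100 genes passed 2-fold, although in the restricted set 1 was higher (S100a4, 8 UMIs in CCl4) and 3 were lower. The lower ones were S100a6 (1849 against 4820 CPM) and S100a8 and S100a9, which are genes of the rule. Csf3r, the receptor for granulocyte colony-stimulating factor and a gene of the rule, stood at 421 against 574 CPM. Hepatocyte genes took up 14.5% of UMIs in the median CCl4 neutrophil, against 3.18% in control and 7.82% in HFD, and their part in these lower levels was not tested.

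Wfdc17 and Ifitm1, named above as higher in HFD, stood below control in CCl4, at 163 and 220 CPM in mature cells. Both comparisons share the control library, so the 3 levels are given side by side. For Wfdc17 they ran HFD, control and CCl4 in falling order, with no overlap of their intervals.

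Tlr4, the lipopolysaccharide receptor on which the study centred, was low in neutrophils. Its level was 15.9 CPM in control (11 to 22.2, 34 UMIs) and 5.21 CPM in HFD (1.42 to 13.3, 4 UMIs). In CCl4 it had no UMI in 53 cells, where 3 counts would be 26.0 CPM, which is above the control level, so an equal level was not detectable at this depth. A Tlr4 UMI was seen in 6.12% of control, 1.31% of HFD and 0 of 53 CCl4 cells (allowing up to 6.72% by the exact interval), against 0.484%, 0.157% and 0% of T cells at median depths of 2477, 2294.5 and 2086 UMIs. After thinning to 1000 UMIs the shares were 2.29% and 0.571%. In the restricted set the levels were 20 and 5.42 CPM in control and HFD. Control neutrophils were above the other barcodes of their library (1.77 CPM) by 8.97-fold (5.84 to 13.5). Against classical monocytes, taken as Ly6c2 with at least 3 UMIs in Csf1r, Ccr2, F13a1 and Ms4a6c, the ratio was 1.39 (0.807 to 2.43) in control and 0.456 (0.109 to 1.45) in HFD, so no difference from monocytes was detectable.

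The partners of Tlr4 were uneven. Cd14, which hands lipopolysaccharide to the receptor, stood at 340, 304 and 182 CPM in control, HFD and CCl4 neutrophils, with 405, 365 and 240 CPM in classical monocytes and 21.4, 9.84 and 4.42 CPM in T cells. Ly96, which encodes the binding subunit MD-2, stood at 24.3, 15.6 and 17.3 CPM, with 13, 16.3 and 12.8 CPM in T cells. An excess over T cells was seen in control (1.87, 1.28 to 2.74) and not in HFD (0.960, 0.467 to 1.82) or CCl4 (1.35, 0.156 to 5.34), and against all other barcodes control Ly96 was not higher (1.11, 0.822 to 1.46). Tlr2 stood at 94.5, 75.6 and 8.66 CPM and Tlr13, a sensor of bacterial RNA, at 27.1, 26.1 and 0 CPM. Bdnf, the neurotrophin whose relation to Tlr4 the study examined, had 2, 1 and 1 UMIs in all neutrophils of the 3 libraries, Ngfr had 1, 0 and 0, and Ntrk2 had none. Il1b, which lies downstream of this pathway, stood above classical monocytes by 5.07-fold (4.71 to 5.47) in control, 2.06-fold (1.91 to 2.23) in HFD and 2.60-fold (2.05 to 3.30) in CCl4.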

How the data were processed

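Single-cell suspensions were captured with a droplet 3′ chemistry (10x Genomics). The deposited matrices hold raw UMI counts per gene and barcode, which the authors made with Cell Ranger (7.2.0 per the file headers). The study's methods name mm10 and the submitters' processing notes list GRCm39, so no coordinate was taken from the files. How barcodes were called is not given in the sources used here. All 36990 barcodes and 55357 features were used, features with the same symbol were summed, and no other column was present.

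UMIs were summed over the cells of a class and given as CPM of all UMIs, with exact Poisson intervals, exact Clopper-Pearson intervals for shares and exact conditional intervals for ratios, at 95%. Python 3.11.15, scipy 1.17.1 and scanpy 1.11.5 were used, and the contrasts were tested on simulated data. Called genes passed 2-fold in (CPM + 5) with at least 50 CPM in either group. Named genes were the 10 highest and 10 lowest at 3 times the level in T and B cells, and the genes of 16 lists. The members, lists and 12 marker lists were chosen with earlier results of these data known. Scrublet called 2, 1 and 3 barcodes as doublets, and these calls were not used. Doublets were not removed, and leaving out the 8% with the highest scores was 1 of the alternatives. The restricted set, a set without other lineages' markers and the ratio to T cells were chosen after seeing the data. No p-value was computed.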

Additional observations from a re-analysis of the deposited data

Results flagged for a closer look

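Within immature against mature neutrophils, 3 listed genes went opposite ways in the control and HFD libraries, with counting intervals on opposite sides of no change. The difference between the libraries was not tested, since each group had 1 library. Osm, the cytokine oncostatin M, had a log2 ratio of 1.09 in control (355 CPM in immature and 165 CPM in mature cells) and -0.78 in HFD (107 and 187 CPM). S100a11 had 0.37 in control (2451 and 1891 CPM) and -0.37 in HFD (2198 and 2845 CPM). Mxd1, a transcription factor of the MYC network, had 0.18 in control (995 and 876 CPM) and -0.50 in HFD (488 and 692 CPM). In the restricted set the opposite signs held for Osm (1.17 in control and -0.65 in HFD). However, the HFD intervals of Osm in immature (61.6 to 198 CPM) and mature cells (152 to 221 CPM) overlapped there. The opposite signs did not hold for Mxd1 (-0.13 and -0.37). For S100a11 (0.12 and -0.32) they held, but the control intervals of immature (2688 to 3067 CPM) and mature cells (2554 to 2748 CPM) overlapped.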

How the results depend on the processing

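The log2 ratios of the 40 genes named for HFD and CCl4 against control kept their sign under each alternative run. These genes were chosen as the extremes of the same contrasts, and some of their sizes moved far. In the restricted set F13a1 in HFD went from -2.16 to -0.57, and Chil3 in CCl4 from -4.69 to -1.98. Other directions did not all hold: in the restricted set 17 of 135 listed genes tested in HFD and 5 of 134 in CCl4 had the opposite sign, Chil3 (55 against 124 CPM, then 30.4 against 14.7) and Cxcl2 (5219 against 4120, then 5237 against 5764) in HFD among them. Counts of genes are called alike within 1.5 times, and shares and levels when inside the main value's counting interval, which 98 of 134 values were. Neutrophil share (main 4.79%, 2.36% and 0.415% in control, HFD and CCl4): from 5 UMIs of the 6 genes control had 4.34% and CCl4 0.227%, from 50 UMIs of S100a8 and S100a9 3.93% and 0.149%. In control it was 4.38% without the highest Scrublet scores and 4.20% both without other lineages' markers and in the restricted set. At most 1% hepatocyte UMIs left 24 control barcodes (0.213%) and 0 in HFD and 0 in CCl4, so that this alternative gave no value for those libraries' other results. Immature share (main 17.6%, 13.1% and 9.43%): control had 21.5% from 50 S100 UMIs, 45.8% under the hepatocyte limit, 13.5% with immature from 50 UMIs and 38.6% with Lcn2 and Chil3 added, HFD had 8.17% from 50 UMIs, and CCl4 had 26.3% and 1.89% under the S100 limit and with immature from 50 UMIs, the former above control. Control Tlr4 was 5.92 CPM under the hepatocyte limit.

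Genes past 2-fold, HFD against control (main 193 higher and 341 lower): 303 and 705 from 20 CPM, 83 and 89 from 200 CPM, and 17 and 23 above T and B cells. The lower genes numbered 519 with each cell weighted equally, 212 with 20 CPM added and 513 in the restricted set. For CCl4 (389 and 566): 699 and 1255 from 20 CPM, 130 and 118 from 200 CPM, where higher genes outnumbered lower ones, and 16 and 79 above T and B cells. Immature against mature in all 3 libraries (78 and 47): 29 lower with 20 CPM added, and 144 and 88 in the control and HFD libraries alone. No paired analysis was possible because each group had 1 library and no test was run. Depth limits CCl4 most, since 3 counts in its mature cells are 28.7 CPM.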
